A study of Mus musculus with 9 samples.

Results

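The genes of MHC class I and class II antigen presentation were followed in sorted mouse skin cells of 3 groups, named UVB, Active and Quiescent. The 38 genes were taken by symbol from a fixed list, out of 23361 genes in the deposited table, and fall into 27 of the class I pathway and 11 of the class II pathway. RNA was measured by poly(A)-selected, directional RNA sequencing in 9 libraries, 3 per group. Per the labels, every library came from skin of 10-week-old mice with the genotype TBPT and from cells labelled melanocyte stem cells, the pigment cell reserve of the hair follicle. The sources used here do not spell out the alleles behind TBPT, the sorting markers or the number of animals per library. The treatment entry names chemical depilation or UVB, the medium-wave band of ultraviolet light, for all libraries alike, so what each group received is known only as far as its name says. Nothing in the labels says that the libraries of a group came from different animals, so a p-value here reflects the scatter among libraries, which may be technical.

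Class I molecules sit on nearly all nucleated cells and show peptides from the cell's own proteins to CD8 T cells. The proteasome cuts these peptides, the TAP transporter moves them into the endoplasmic reticulum, and tapasin loads them onto a heavy chain paired with beta-2 microglobulin. Class II molecules are made mainly by dendritic cells, Langerhans cells, macrophages and B cells, and show endocytosed antigen to CD4 T cells. Interferon gamma can switch on class II in other cells, melanocytes among them, through the transactivator CIITA, while the related NLRC5 acts on class I genes.

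Of the 38 genes, 27 lie in a stretch of 3.56 Mb on mouse chromosome 17, chr17:33919478-37483554 in the RefSeq annotation of GRCm38.p6, the assembly of the build mm10 that the submitters named. The others lie on chromosomes 2 (B2m), 3, 6, 8, 13, 14, 16 and 18. The promoters of class II genes are known to carry an X box and a Y box, to which the complex that recruits CIITA binds. Promoters of 4 class II genes are shown as examples, with B2m and H2-D1 of class I beside them. The examples leave out H2-DMa, H2-Oa and Ctss, which had no X box match, and H2-DMb2, which had a match. Each sequence is RefSeq sequence of GRCm38.p6, 5′ to 3′ on the gene's strand, from 140 to 21 bases before the annotated start. Capitals mark matches on either strand to the Y box (GATTGG), the X box (AAC, any 2 bases, then ATGATG), the interferon-stimulated element (GAAA, any 2 bases, then GAAA) or the cyclic AMP element (TGACGTCA).
H2-Aa: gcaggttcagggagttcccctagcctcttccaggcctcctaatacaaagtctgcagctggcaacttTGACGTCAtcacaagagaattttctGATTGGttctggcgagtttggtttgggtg
H2-Eb1: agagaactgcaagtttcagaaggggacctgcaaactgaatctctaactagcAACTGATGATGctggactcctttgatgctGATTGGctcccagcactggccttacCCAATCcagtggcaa
H2-DMb1: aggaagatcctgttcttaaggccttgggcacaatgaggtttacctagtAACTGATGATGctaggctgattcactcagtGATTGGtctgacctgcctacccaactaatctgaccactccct
H2-Ob: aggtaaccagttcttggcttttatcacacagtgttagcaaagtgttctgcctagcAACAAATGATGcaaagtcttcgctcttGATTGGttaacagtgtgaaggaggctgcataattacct
B2m: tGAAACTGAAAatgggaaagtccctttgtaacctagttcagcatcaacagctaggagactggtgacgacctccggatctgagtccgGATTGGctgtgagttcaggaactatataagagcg
H2-D1: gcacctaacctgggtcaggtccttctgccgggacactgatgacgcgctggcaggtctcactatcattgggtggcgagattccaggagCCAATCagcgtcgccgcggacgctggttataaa

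The windows lie at chr17:34287844-34287963 on the minus strand for H2-Aa, and on the plus strand at chr17:34305727-34305846 for H2-Eb1, chr17:34153051-34153170 for H2-DMb1, chr17:34238765-34238884 for H2-Ob, chr2:122147547-122147666 for B2m and chr17:35262954-35263073 for H2-D1. In H2-Eb1, H2-DMb1 and H2-Ob an X box lay upstream of a Y box, with no overlap between them. The X box began at positions -89, -92 and -85, and the Y box at -60, -62 and -58, counted from the annotated start. H2-Aa had no match to the X box letters in this window, a cyclic AMP element at -74 and a Y box at -49. An X box with other letters would not be found by this search. B2m and H2-D1 had a Y box, which lay on the opposite strand in H2-D1, and no X box in this window.

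Promoters were found for 28 of the 38 genes, and 250 bases before the start were searched. The X box was in 4 of 8 class II promoters (H2-DMb1, H2-DMb2, H2-Eb1 and H2-Ob) and in 0 of 20 class I promoters, against 0.122% of the promoters of 27025 genes. The Y box was in 7 of 8 class II and 10 of 20 class I promoters, against 15.1% of all. The NF-kB site (GGGGA, any base, then TCCCC) was in H2-K1, H2-D1 and H2-Q6, against 0.0407% of all, and in H2-D1 it lay outside the window printed here. The interferon-stimulated element was in B2m, Ctss, H2-T22 and H2-T23, against 3.04% of all, and the cyclic AMP element in H2-Aa alone among the 28, against 1.62% of all. The motif letters were chosen with these promoters in view, and a match is not evidence of binding.

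The libraries held 21045070 to 35131778 fragments assigned to genes. Levels are CPM, fragments relative to the scaled library total. Groups were compared with the quasi-likelihood test of edgeR, p-values were adjusted by the Benjamini-Hochberg method over all 15078 genes tested, and a gene was called at an adjusted p under 0.05. The members H2-Q1 and H2-Q2 had too few fragments to be tested, with at most 0.252 and 0.313 CPM in any library. Another 4 genes, H2-Q10, H2-M2, H2-DMb2 and H2-Oa, passed the filter on low counts only through the UVB libraries. Markers of the pigment lineage, which the label names for all groups, differed widely between them. A list of 10 summed to 888 to 1070 CPM in UVB, 7840 to 12800 CPM in Active and 74.4 to 122 CPM in Quiescent. Its members did not all follow the sum. In UVB against Active 9 were called lower, but not Sox10, with means of 474 and 591 CPM (edgeR adjusted p = 0.69). In UVB against Quiescent 8 were called higher, while Mitf averaged 27.3 and 55 CPM and was not called (0.088). The Quiescent libraries held 336000 to 454000 CPM of 7 fibroblast markers, against 21900 to 34300 CPM in UVB and 4760 to 6060 CPM in Active. Xist, made from the inactive X chromosome of female cells, stood at 736 to 1040 CPM in UVB, 0.204 to 0.435 CPM in Active and 0.236 to 0.469 CPM in Quiescent. The Y-linked Ddx3y was at 0 to 0.0315 CPM in UVB, 68.6 to 74.4 CPM in Active and 104 to 169 CPM in Quiescent. The UVB label and this difference in sex-linked transcripts cannot be told apart. In sorted bulk cells, fewer cells of a type and less RNA per cell cannot be told apart either.

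Between UVB and Active the class II genes differed as a group, and of the class I genes H2-M2 alone differed as much. All 11 class II genes were called higher in UVB and none lower, with log2 fold changes of 3.35 to 4.94 and a median of 4.03, against a median of 0.014 over all genes tested. In this comparison 14.8% of genes were called higher and 9.19% lower, 24% in either direction. Of the class I pathway, 4 of the 25 genes tested were called higher and 0 lower, with a median of 0.60. H2-DMb2 and H2-Oa among the 11, and H2-M2 among the 4, entered the test through the UVB libraries alone, where they were high. Leaving out Quiescent replicate 2, which takes no part in this comparison but adds to the estimate of spread, left the counts at 11 and 4, with 15.3% of all genes called higher and 9.56% lower. With DESeq2, 9 class I genes were called higher, beside 2675 of all 15078 genes tested. Without Quiescent replicate 3 the count was 8, beside 2533 of all genes, against 2226 with all libraries.

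**Figure D1:**
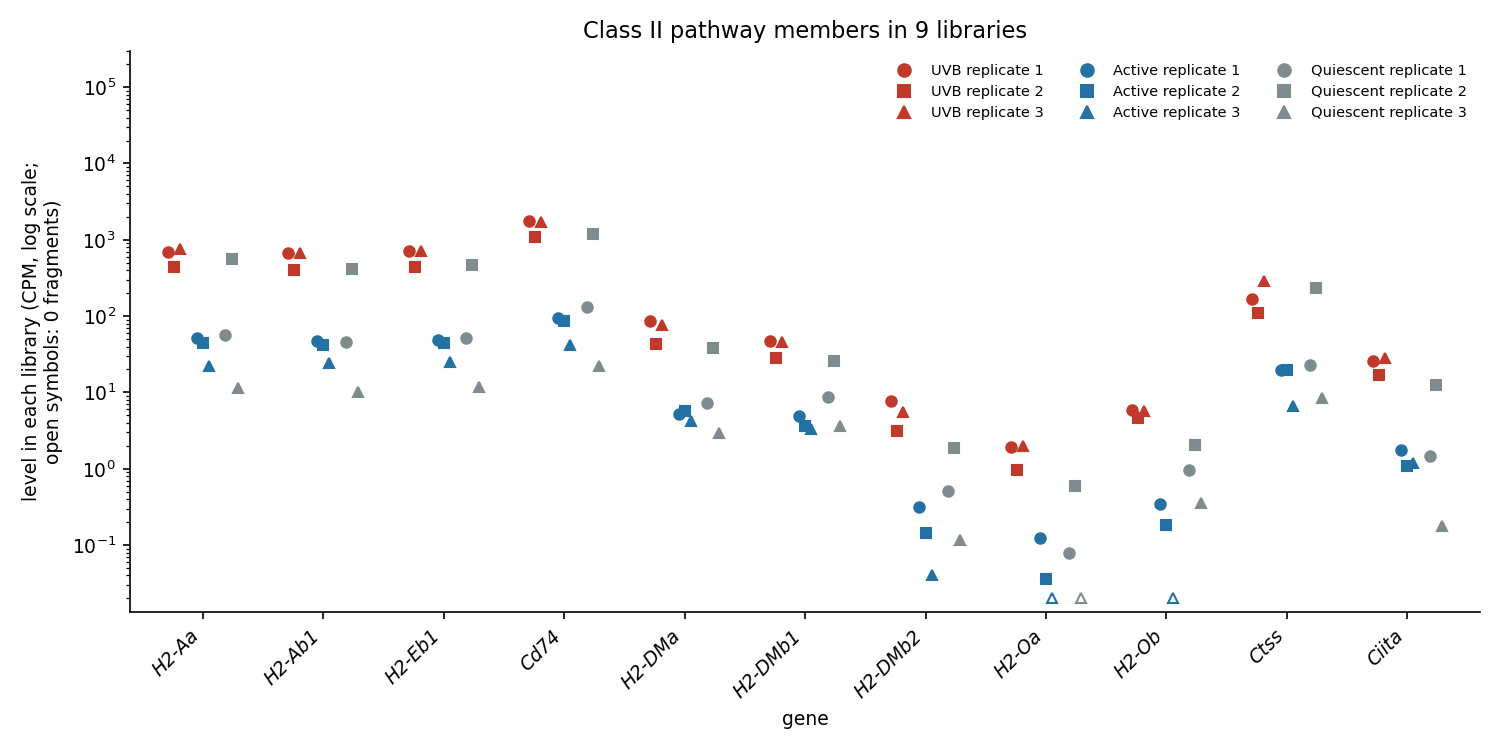
Level of each class II pathway gene in each library, in CPM on a log scale, with UVB in red, Active in blue and Quiescent in grey, and symbols for replicates 1 to 3. For every gene the 3 UVB libraries lie above the 3 Active libraries, and Quiescent replicate 2 lies above the other Quiescent libraries.

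The 3 chains of the class II molecules, the alpha and beta chain of I-A and the beta chain of I-E, followed the same pattern across the libraries. H2-Aa, the I-A alpha chain, had 702, 447 and 767 CPM in UVB, 51.2, 43.9 and 22.1 CPM in Active, and 56.5, 553 and 11.5 CPM in Quiescent. The UVB libraries were above all Active libraries, while Quiescent spanned the range of both, since its replicate 2 lay among the UVB libraries, its replicate 1 just above the Active libraries and its replicate 3 below them. H2-Ab1, the I-A beta chain, had 679, 400 and 678 CPM in UVB, 46.8, 42.2 and 24.4 CPM in Active, and 45.5, 417 and 10.0 CPM in Quiescent. H2-Eb1, the I-E beta chain, had 716, 437 and 716 CPM in UVB, 48.9, 44.0 and 24.7 CPM in Active, and 51.3, 472 and 11.9 CPM in Quiescent. As for H2-Aa, the UVB libraries were above all Active libraries and Quiescent replicate 2 lay among the UVB libraries. The ratio of H2-Aa to H2-Ab1 in CPM, which is not per length, was 1.03 to 1.13 in UVB, 0.906 to 1.09 in Active and 1.14 to 1.33 in Quiescent. H2-Ea-ps, a pseudogene of the I-E alpha chain, had 0 fragments in all libraries.

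In UVB against Active, the log2 fold change was 4.03 ± 1.18 (SE) for H2-Aa (adjusted p = 0.039), 3.95 ± 1.13 for H2-Ab1 (0.036) and 3.99 ± 1.13 for H2-Eb1 (0.034). These p-values lay close to the threshold. With any 1 UVB or Active library left out, the changes stayed at 3.68 to 4.27 but H2-Aa and H2-Ab1 lost the call in every case and H2-Eb1 in all but that of UVB replicate 2, with adjusted p up to 0.12. Of the 11 class II genes, 4, 8 and 5 were called without UVB replicates 1, 2 and 3, and 4, 3 and 4 without Active replicates 1, 2 and 3. Over all 15078 genes tested, 2226 were called higher with all libraries. In these fits the counts were 1411, 2038 and 1642, and 1230, 1039 and 1489, in the same order. DESeq2 gave no adjusted p for the 3 chains and Cd74.

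The genes that load class II molecules followed the chains. Cd74, the invariant chain that guards the peptide groove until the endosome is reached, had 1750, 1080 and 1710 CPM in UVB, 94.8, 85.4 and 41.6 CPM in Active, and 130, 1180 and 22 CPM in Quiescent. It was 20.4-fold higher in UVB than in Active (adjusted p = 0.032). Measured per transcript length, by the authors' FPKM, Cd74 was first of the 38 genes in UVB, at 1330 ± 309 FPKM (SD, n = 3), and seventh in Active, at 65.7 ± 25.5 FPKM. Ctss, the cathepsin that trims the invariant chain, had 168, 111 and 291 CPM in UVB, 19.7, 19.6 and 6.62 CPM in Active, and 22.9, 235 and 8.56 CPM in Quiescent, a log2 fold change in UVB against Active of 3.63 ± 1.12 (adjusted p = 0.047). Cd74 lost the call without any 1 of UVB replicates 1 and 3 and the 3 Active libraries, and Ctss without any 1 UVB or Active library, at log2 fold changes of 4.03 to 4.57 and 3.19 to 3.90. Ctss also lost it with unscaled library totals (adjusted p = 0.051) and with the replicate number as a block (0.055).

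The peptide exchange factors differed between UVB and Active as well. H2-DM, with an alpha and a beta chain, swaps the last piece of the invariant chain for antigenic peptide, and H2-O holds H2-DM in check. H2-DMb1 had 47.3, 28.5 and 46.3 CPM in UVB, 4.96, 3.63 and 3.35 CPM in Active, and 8.84, 26.0 and 3.66 CPM in Quiescent. H2-DMb2 had 7.63, 3.15 and 5.47 CPM in UVB, 0.312, 0.145 and 0.0409 CPM in Active, and 0.508, 1.85 and 0.118 CPM in Quiescent. These genes are close copies, so the split of fragments between them is uncertain. H2-Ob, the beta chain of H2-O, had 5.89, 4.59 and 5.70 CPM in UVB, 0.343, 0.181 and 0 CPM in Active, and 0.977, 2.03 and 0.354 CPM in Quiescent. For all 3 the UVB libraries stood above every other library. In UVB against Active the log2 fold change was 3.35 ± 0.63 for H2-DMb1 (adjusted p = 0.0076), 4.94 ± 0.95 for H2-DMb2 (0.0084) and 4.85 ± 0.87 for H2-Ob (0.0065), and these 3 kept the call with each of the 9 libraries left out, H2-DMb2 having entered the test through the UVB libraries alone. H2-DMa and H2-Oa, the alpha chains, were called higher in UVB than in Active too (3.76 ± 0.82 and 4.70 ± 1.12), and H2-DMa lost the call without Active replicate 1 or 2. H2-Oa lost it without UVB replicate 1 or Active replicate 2 or 3. H2-Oa rested on 147 fragments in UVB, 5 in Active and 12 in Quiescent.

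Ciita, the transactivator of class II genes, had 25.6, 17 and 28.1 CPM in UVB, 1.75, 1.09 and 1.19 CPM in Active, and 1.49, 12.5 and 0.177 CPM in Quiescent. Every UVB library was above every other library, and Quiescent replicate 2 came next. It was 17.5-fold higher in UVB than in Active (adjusted p = 0.027), and lost the call without any 1 of UVB replicates 1 and 3 and the 3 Active libraries, with adjusted p up to 0.10. The factors that bind the X and Y boxes and on which CIITA acts had log2 fold changes of -0.19 to 0.45 in UVB against Active. Of these 7 genes for RFX, CREB and NF-Y, 0 were called by edgeR, beside 24% of all genes. The unadjusted p of edgeR was under 0.05 for 2, and DESeq2 called 1, beside 2675 higher and 1967 lower of all genes. Rfx5, the large subunit of RFX, had 20.4, 17.1 and 23.7 CPM in UVB and 13.7, 14.7 and 16.4 CPM in Active, with an adjusted p of 0.055.

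Against Quiescent, the class II calls depended on which libraries were in the fit. With all libraries, 5 of 11 class II genes were called higher in UVB and 0 lower, with a median log2 fold change of 1.90 against 0.021 over all genes. In this comparison 25.8% of genes were called higher and 23.2% lower, 49% in either direction. The 5 were H2-DMa, H2-DMb1, H2-DMb2, H2-Oa and H2-Ob, at 1.67 to 2.88. Of these, H2-DMb2 and H2-Oa entered the test through the UVB libraries alone, where they were high. Without Quiescent replicate 2, all 11 were called higher, with a median of 4.22 and with 25.5% of all genes called higher and 21.5% lower. That library was singled out for its high class II levels, so the calls without it are not independent of those levels. H2-Aa moved from a log2 fold change of 1.63 (adjusted p = 0.24) to 4.22 (0.0026), Ciita from 2.33 (0.081) to 4.73 (0.0011) and Cd74 from 1.77 (0.21) to 4.31 (0.0034). The count also changed with other libraries. Without UVB replicate 1 or Quiescent replicate 1, 0 of the 11 were called, without UVB replicate 2 the count was 2, and without UVB replicate 3 or Quiescent replicate 3 it was 1. Without Active replicates 1, 2 and 3 it was 3, 1 and 3, as all groups share 1 estimate of spread, and in a fit of UVB and Quiescent alone it was 2. From the fit without UVB replicate 1 on, 3204 to 3790 of all 15078 genes tested were called higher, against 3895 with all libraries. With limma on log2(FPKM + 1), all 11 but Ctss were called higher, H2-Aa with an adjusted p of 0.047 and a change of 3.07 on that scale.

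Between Active and Quiescent the class II calls also depended on single libraries. With all libraries, 0 of the 11 were called higher in Active and 2 lower, H2-DMb1 at -1.68 ± 0.60 (adjusted p = 0.037) and H2-Ob at -2.58 ± 0.85 (0.027), in a comparison where 29.1% of genes were called higher and 29.2% lower, 58.3% in either direction. The median over the 11 was -2.18, and without Quiescent replicate 2 it was -0.02, with 0 of them called in either direction by edgeR, beside 27.1% of all genes called higher and 26.6% lower. Without Quiescent replicate 3, in contrast, 10 were called lower in Active, beside 4286 of all 15078 genes tested. DESeq2 called 5 lower, beside 4697 of all genes, and gave no adjusted p for H2-Aa, H2-Ab1, H2-Eb1 and Cd74. H2-DMb1 also lost the call without UVB replicate 1 or any 1 Active library, and H2-Ob without Active replicate 2. Both lost it in a fit of Active and Quiescent alone (adjusted p = 0.069 each), with unscaled library totals (0.19 for H2-DMb1 and 0.082 for H2-Ob) and with limma on log2(FPKM + 1) (0.10 and 0.053). H2-DMb1 lost it with the replicate number as a block too (0.089). The 3 comparisons share libraries in pairs and are not independent of each other.

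**Figure D2:**
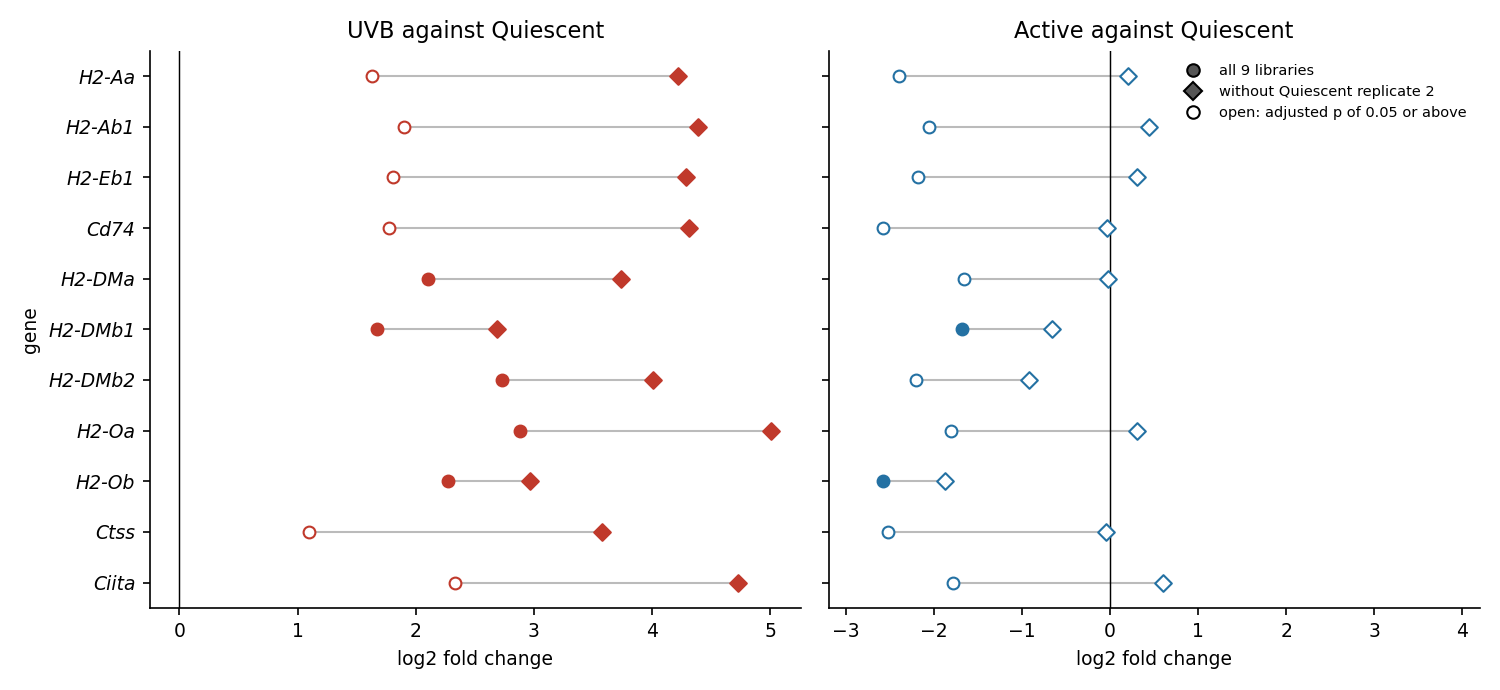
Log2 fold changes of the 11 class II pathway genes in UVB against Quiescent and in Active against Quiescent, from all 9 libraries (circles) and without Quiescent replicate 2 (diamonds), filled where the adjusted p was under 0.05. Leaving out that library moves every gene to the right, to a median of 4.22 in UVB against Quiescent and of -0.02 in Active against Quiescent. The library was singled out for its high class II levels.

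The summed markers of myeloid cells, which normally carry class II, moved with the class II genes across the libraries, though not every marker did. The list of 20 myeloid and Langerhans markers summed to 1040, 1090 and 2220 CPM in UVB, 126, 135 and 47.7 CPM in Active, and 415, 3340 and 230 CPM in Quiescent. Of the 20, 18 were called higher in UVB than in Active and 0 lower, beside 14.8% and 9.19% of all genes. Without UVB replicates 1 and 3 the count was 6 and 7, beside 1411 and 1642 of all 15078 genes tested. Without any 1 Active library it was 4, beside 1039 to 1489 of all genes. Against Quiescent, 3 were called higher in UVB, beside 25.8% of all genes, and 18 without Quiescent replicate 2, beside 25.5%. In Active, 14 were lower than in Quiescent and 0 higher, 5 lower and 1 higher without Quiescent replicate 2, and 9 and 5 lower without Active replicates 1 and 3. With all libraries, 29.2% of all genes were called lower in Active and 29.1% higher. Csf1r, the receptor for the macrophage growth factor, had 121, 121 and 227 CPM in UVB, 10.4, 11.0 and 3.35 CPM in Active, and 122, 529 and 99.3 CPM in Quiescent. Itgax, the dendritic cell integrin CD11c, had 47.0, 22.7 and 30.2 CPM in UVB, 2.15, 1.92 and 0.858 CPM in Active, and 1.56, 4.35 and 0.118 CPM in Quiescent. Cx3cr1, a chemokine receptor of monocytes and macrophages, and Fcgr3, an Fc receptor, were 15.9-fold and 19.9-fold higher in UVB than in Active. Some of the 20 were lower in Quiescent replicate 2 than in every UVB library. Among these, Cx3cr1 had 0.775 CPM in Quiescent replicate 2 and at least 5.14 CPM in UVB. Cd207, a Langerhans cell marker, had 2.98 CPM there and at least 8.01 CPM in UVB. Cd207 was not called in UVB against Active (edgeR adjusted p = 0.066).

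Quiescent replicate 2 had the highest myeloid sum of all libraries while its summed level of the 3 class II chains, 1440 CPM, lay between those of UVB replicates 2 and 1. The chains stood at 2.01, 1.18 and 0.974 times the myeloid sum in UVB, 1.16, 0.967 and 1.49 times in Active, and 0.369, 0.431 and 0.145 times in Quiescent. As a ratio of CPM, which is not per length, H2-Aa over Ptprc, the gene of the leukocyte surface protein CD45, was 8.41, 7.17 and 7.28 in UVB, 9.83, 9.10 and 12.6 in Active, and 7.37, 9.08 and 4.62 in Quiescent. This ratio spanned 4.62 to 12.6 over the 9 libraries, while H2-Aa itself spanned 11.5 to 767 CPM. The ratio of CPM of H2-Aa over Csf1r was 3.39 to 5.80 in UVB, 4.01 to 6.60 in Active and 0.115 to 1.05 in Quiescent. Ptprc, Csf1r and C1q were picked for these ratios after their values were seen.

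**Figure D3:**
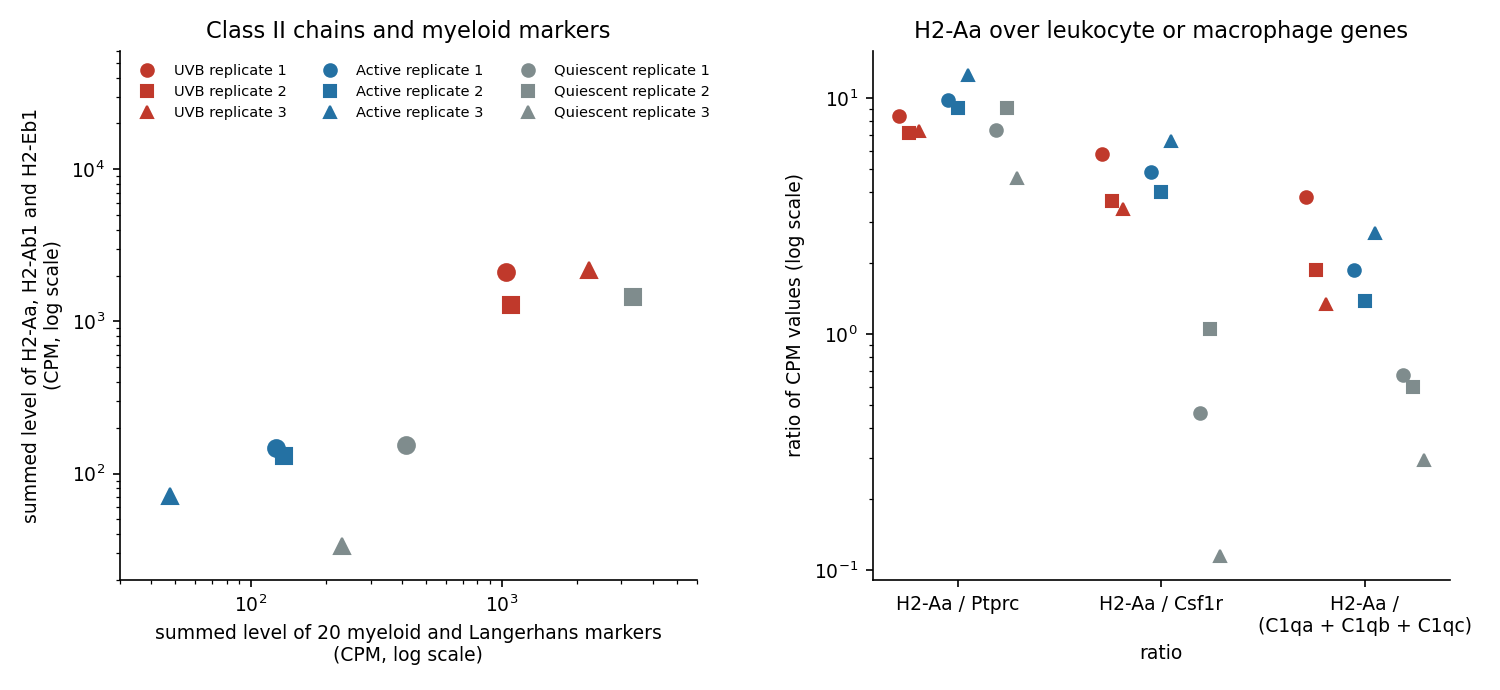
Left, the summed level of H2-Aa, H2-Ab1 and H2-Eb1 against that of 20 myeloid and Langerhans markers, with 1 point per library and log axes in CPM. Right, the ratio of CPM of H2-Aa over Ptprc, Csf1r and the C1q genes in each library on a log axis, where the ratio to Ptprc stays at 4.62 to 12.6 and the ratio to Csf1r is at most 1.05 in Quiescent and at least 3.39 in the other groups.

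Other cells that make or prompt class II were checked in the same way. The 5 B cell markers summed to at most 1.91 CPM in any library, and Pax5, which defines the lineage, was at 0 in all. The 7 T cell markers summed to 24.2, 21.3 and 21.4 CPM in UVB, 4.11, 2.57 and 2.86 CPM in Active, and 3.99, 21.8 and 2.07 CPM in Quiescent, and 20.6 CPM of the Quiescent replicate 2 value was Cd4, which some mouse dendritic cells also carry. All 7 were called higher in UVB than in Active, beside 14.8% of all genes. Without any 1 library of these groups, 3 or 4 were called higher, beside 1039 to 2038 of all 15078 genes tested. Of the 7, Cd3d, Cd3e and Cd8a entered the test through the UVB libraries alone, where they were high. Cd3g, a chain of the T cell receptor complex, had 7, 4.42 and 4.08 CPM in UVB, 0.904, 0.508 and 0.736 CPM in Active, and 0.313, 0.179 and 0.0591 CPM in Quiescent. The part that leukocytes have in the class II levels was not tested.

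Interferon gamma and its signalling genes gave a mixed picture. Ifng, named after its values were seen, had 15, 23 and 11 fragments in UVB, 0, 0 and 1 in Active, and 0, 10 and 1 in Quiescent, so that Quiescent replicate 2 again stood with UVB. It entered the test through the UVB libraries alone. Of the list of 9, 4 were called higher in UVB than in Active and 0 lower, 1 was higher and 4 lower in UVB than in Quiescent, while in Active 0 were higher and 6 lower than in Quiescent. The shares of all genes called higher and lower were 14.8% and 9.19%, 25.8% and 23.2%, and 29.1% and 29.2%, in that order. The count of 4 was 1 without UVB replicate 1, Active replicate 1 or Active replicate 2, and 2 without UVB replicate 3 or Active replicate 3. In these fits, 1039 to 1642 of all 15078 genes tested were called higher. Against Quiescent, 2 were lower in UVB without UVB replicate 1 or 2, and 3 were higher without Quiescent replicate 2. Socs1, a feedback inhibitor of the pathway, had 11.1, 5.69 and 7.29 CPM in UVB, 1.90, 1.60 and 4.09 CPM in Active, and 41.4, 48.5 and 32.7 CPM in Quiescent. Its levels did not overlap between any of the groups and were highest in Quiescent, unlike those of the class II genes. Ifngr1 and Ifngr2, the receptor chains, fell in Active against Quiescent by 1.58 and 0.75 on the log2 scale, and Jak1, a kinase bound to the receptor, by 0.88. Irf1, a transcription factor induced by the pathway and noted here for a single library, stood at 911 CPM in Quiescent replicate 2 and at 75.4 to 216 CPM in all other libraries.

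Most class I pathway genes showed smaller differences than the class II genes. Of the 25 tested, 24 had a positive log2 fold change in UVB against Active, 13 in UVB against Quiescent and 8 in Active against Quiescent, most of them not called. In UVB against Quiescent, 5 of the 25 genes tested were called higher and 5 lower, with a median log2 fold change of 0.07. Without Quiescent replicate 2 the counts were 5 and 4. H2-M2, among the 5 called higher in each fit, entered the test through the UVB libraries alone, where it was high. In Active against Quiescent, 1 was called higher and 8 lower, with a median of -0.37, and without Quiescent replicate 2 the counts were 0 and 8. The 10 and 9 genes called of 25 stand beside 49% and 58.3% of all genes called in those comparisons.

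**Figure D4:**
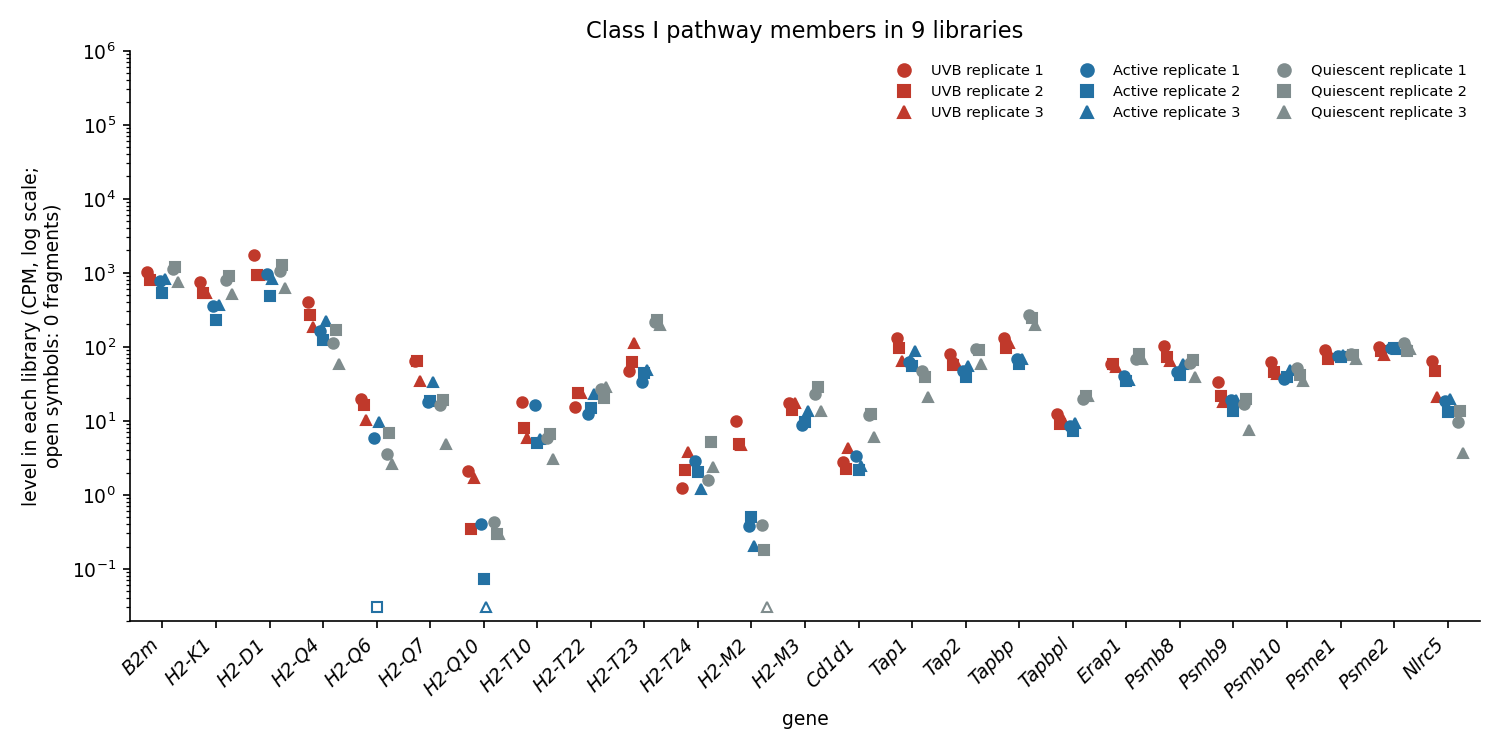
Level of the class I pathway genes in each library, in CPM on a log scale, coloured by group as UVB red, Active blue and Quiescent grey. Tapbp and H2-T23 are highest in Quiescent, H2-K1 is lowest in Active, and H2-M2 is highest in UVB.

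Beta-2 microglobulin, H2-K1 and H2-D1 were abundant in every group. B2m, the shared light chain, had 1020, 806 and 838 CPM in UVB, 763, 534 and 825 CPM in Active, and 1130, 1210 and 760 CPM in Quiescent. The groups overlapped, and B2m was not called in any comparison, at 0.33 ± 0.22 in UVB against Active, -0.22 ± 0.22 in UVB against Quiescent and -0.55 ± 0.22 in Active against Quiescent (adjusted p = 0.32, 0.44 and 0.063). DESeq2 called the last of these (adjusted p = 0.026), as did edgeR without Quiescent replicate 3 (0.016). Per transcript length B2m was the first of the 38 genes in Active and Quiescent and the second in UVB, with 1280 ± 159 FPKM in UVB, 1030 ± 216 FPKM in Active and 1510 ± 347 FPKM in Quiescent. H2-K1 and H2-D1, classical heavy chains, are named after their values were seen and are close class I copies, so their fragments may be shared among such copies. H2-K1 had whole numbers of fragments in all libraries, and H2-D1 did not in 8 of them. H2-L, a classical heavy chain gene outside the 38, averaged 39.9 CPM in UVB, 23.7 CPM in Active and 37.9 CPM in Quiescent. Its summed fragments were not whole in any group. H2-K1 had 759, 532 and 534 CPM in UVB, 351, 227 and 364 CPM in Active, and 794, 911 and 513 CPM in Quiescent. It rose in UVB against Active (0.95 ± 0.27, adjusted p = 0.032) and fell in Active against Quiescent (-1.24 ± 0.27, 0.0038), with no overlap in either pair. The first of these calls was lost without UVB replicate 1 or any 1 Active library, with adjusted p up to 0.11. It was lost with the replicate number as a block too (adjusted p = 0.054). H2-D1 averaged 1210 ± 479 CPM in UVB, 765 ± 249 CPM in Active and 986 ± 327 CPM in Quiescent and was not called in any comparison.

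Nonclassical class I genes divided into some that were highest in Quiescent and some that were highest in UVB. H2-T23, a close copy of other T-region genes that encodes Qa-1, the ligand of the inhibitory NKG2A receptor, had 46.7, 62.0 and 114 CPM in UVB, 33.6, 43.8 and 47.8 CPM in Active, and 215, 233 and 198 CPM in Quiescent. All Quiescent libraries lay above all others, and H2-T23 fell in UVB against Quiescent (-1.53 ± 0.30, adjusted p = 0.0030) and in Active against Quiescent (-2.37 ± 0.31, 0.00022). Cd1d1, which shows lipids to natural killer T cells, had 2.77, 2.26 and 4.35 CPM in UVB, 3.37, 2.18 and 2.45 CPM in Active, and 11.8, 12.3 and 6.02 CPM in Quiescent. It fell by 1.68 ± 0.36 in UVB against Quiescent and by 1.91 ± 0.37 in Active against Quiescent (adjusted p = 0.0049 and 0.0019). H2-T23 and Cd1d1 kept these calls with each library left out in turn.

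H2-M2, a class I gene of the M region, went the other way. It had 10.0, 4.90 and 4.69 CPM in UVB, 0.374, 0.508 and 0.204 CPM in Active, and 0.391, 0.179 and 0 CPM in Quiescent, from 600, 31 and 13 fragments in the groups in that order. Every UVB library was above every other library, with log2 fold changes of 4.15 ± 0.72 against Active (adjusted p = 0.0057) and 4.96 ± 0.78 against Quiescent (0.00094), and both calls held with each library left out. H2-M2 entered the test through the UVB libraries alone, so these calls are not independent of its high level there. H2-M3, which presents formylated peptides, was called lower in Active than in Quiescent (-1.05 ± 0.28, adjusted p = 0.011). Of the Q-region genes, all close copies, H2-Q4 and H2-Q7 were called higher in UVB than in Quiescent, at 1.35 ± 0.41 and 2.02 ± 0.49 (adjusted p = 0.024 and 0.0088). H2-Q4 lost the call without UVB replicate 1, Quiescent replicate 1 or Quiescent replicate 3, with adjusted p up to 0.09. H2-Q6 had 5.86 and 9.69 CPM in Active replicates 1 and 3, where its copy H2-Q8 had 0 and 0.0409 CPM, but 0.0394 fragments in Active replicate 2, where H2-Q8 had 5.84 CPM. Without Active replicate 2, H2-Q6 was called higher in UVB than in Quiescent, at 1.85 (adjusted p = 0.0089). With all libraries H2-Q6, H2-Q10, H2-T10, H2-T22 and H2-T24 were not called in any comparison, and H2-Q10 reached 0.020 with DESeq2 in UVB against Active. H2-Q10 too entered the test through the UVB libraries alone.

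Of the 5 peptide loading genes, 3 were called lower in UVB than in Quiescent and 4 lower in Active than in Quiescent, while Tap1 was higher in both. Over all genes, 23.2% were called lower and 25.8% higher in UVB against Quiescent, and 29.2% lower and 29.1% higher in Active against Quiescent. Tapbp, the gene of tapasin, had 132, 94.9 and 113 CPM in UVB, 67.9, 58.6 and 67.9 CPM in Active, and 265, 248 and 194 CPM in Quiescent. No groups overlapped, and Tapbp rose in UVB against Active (0.81 ± 0.16, adjusted p = 0.0094), fell in UVB against Quiescent (-1.05 ± 0.16, 0.00082) and fell in Active against Quiescent (-1.86 ± 0.16, 2.7e-05). Erap1, the aminopeptidase that trims peptides to length, had 57.6, 57.7 and 52.7 CPM in UVB, 40.8, 34.0 and 35.9 CPM in Active, and 69.2, 80.2 and 68.8 CPM in Quiescent. It showed the same order of groups as Tapbp, with changes of 0.60 ± 0.11, -0.38 ± 0.11 and -0.98 ± 0.11 in the 3 comparisons (adjusted p = 0.0065, 0.018 and 8.8e-05). The fall of Erap1 in UVB against Quiescent lost the call without Quiescent replicate 2 (adjusted p = 0.059) and in a fit of these groups alone (0.056), and with unscaled library totals the value was 0.34 (0.041). Tapbpl, a tapasin-like peptide editor, had 12.4, 9.08 and 10.3 CPM in UVB, 8.38, 7.36 and 9.32 CPM in Active, and 19.4, 21.3 and 21.3 CPM in Quiescent. It fell against Quiescent in UVB (-0.96 ± 0.16) and in Active (-1.31 ± 0.16). With unscaled library totals, where the median of all genes stood at 0.742 in UVB against Quiescent, Tapbp and Tapbpl lost the call there, at -0.34 and -0.24. Under the same setting H2-K1, H2-M3, Erap1 and Tap2 lost the call in Active against Quiescent, where the median of all genes stood at 0.757.

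The subunits of the TAP transporter did not move together. Tap1 had 133, 96.6 and 64.3 CPM in UVB, 61.8, 55.4 and 88.1 CPM in Active, and 46.7, 39.3 and 21 CPM in Quiescent. The Quiescent libraries were below all others, and Tap1 rose in UVB against Quiescent (1.46 ± 0.35, adjusted p = 0.0081) and in Active against Quiescent (0.94 ± 0.34, 0.043). The Active call was lost without UVB replicate 2, any 1 Active library, Quiescent replicate 2 or Quiescent replicate 3, with adjusted p up to 0.14. Tap2 had 80.4, 56.2 and 59.6 CPM in UVB, 46.6, 39.5 and 55.6 CPM in Active, and 93.2, 90.6 and 57.9 CPM in Quiescent. It fell in Active against Quiescent (-0.77 ± 0.22, adjusted p = 0.015), a call lost without Active replicate 2 (0.058) or Quiescent replicate 1 (0.051). Tapbp stood at 0.983 to 1.76 times the CPM of Tap1 in UVB, 0.772 to 1.10 times in Active and 5.67 to 9.23 times in Quiescent.

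Nlrc5, the transactivator of class I genes, followed Tap1 rather than Tapbp. It had 64.0, 46.4 and 20.8 CPM in UVB, 18.7, 13.1 and 19.6 CPM in Active, and 9.66, 13.6 and 3.72 CPM in Quiescent. The UVB libraries lay above all others, and Nlrc5 rose in UVB against Quiescent (2.28 ± 0.51, adjusted p = 0.0059), also with each library left out. In UVB against Active the change of 1.35 ± 0.49 did not pass with edgeR (adjusted p = 0.076) and passed with DESeq2 (0.023).

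Of the 5 genes of the immunoproteasome and its activator, 0 were called in any comparison by edgeR, with 1 at an unadjusted p under 0.05. Over all genes, 24% were called in UVB against Active, 49% in UVB against Quiescent and 58.3% in Active against Quiescent. Psmb8, an inducible catalytic subunit, had 103, 73.7 and 63.4 CPM in UVB, 45.2, 41.0 and 58.0 CPM in Active, and 60.1, 65.4 and 38.5 CPM in Quiescent. The UVB libraries were above the Active ones, at 0.74 ± 0.25 with an adjusted p of 0.059, and DESeq2 called this difference (0.024) and no other of the 5 genes. Psmb9, another inducible subunit, had 33.0, 21.8 and 18.0 CPM in UVB, 19.1, 13.6 and 18.9 CPM in Active, and 16.9, 19.6 and 7.50 CPM in Quiescent, and its groups overlapped. Psme2, a subunit of the PA28 activator, had 99.1, 88.6 and 76.6 CPM in UVB, 95.5, 95.8 and 93.1 CPM in Active, and 112, 89.0 and 94.7 CPM in Quiescent, with overlap in every pair. Psmb10 and Psme1 lay within 0.27 of 0 on the log2 scale in all 3 comparisons.

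A list of 16 other proteasome genes was highest in Active. It held Psma1 to Psma7, Psmb1 to Psmb7, Psme3 and Psme4. Among them, only Psmb5, Psmb6 and Psmb7 encode the subunits that the inducible ones replace. Of the 16, 0 were called higher and 11 lower in UVB against Active, beside 14.8% and 9.19% of all genes. In UVB against Quiescent 5 were higher and 1 lower, beside 25.8% and 23.2%. In Active against Quiescent 13 were higher and 0 lower, beside 29.1% and 29.2%. The count of 11 was 4 without UVB replicate 1 or Active replicate 2, 6 without Active replicate 1 and 7 without UVB replicate 2 or 3. In these fits, 461 to 1061 of all 15078 genes tested were called lower. The count of 5 was 3 without UVB replicate 1 or Quiescent replicate 2 and 2 without UVB replicate 2. Psmb3 and Psmb7 rose in Active against Quiescent by 0.97 and 0.87 on the log2 scale, as did Psmb6 (0.85), whose subunit Psmb9 replaces. By FPKM, the inducible genes made up 37.9%, 28.5% and 28.2% of the catalytic subunit transcripts in UVB, 18.2%, 15.1% and 21.7% in Active, and 31.4%, 34.6% and 21.1% in Quiescent. The UVB shares lay above all Active shares, and the Quiescent shares overlapped with both.

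**Figure D5:**
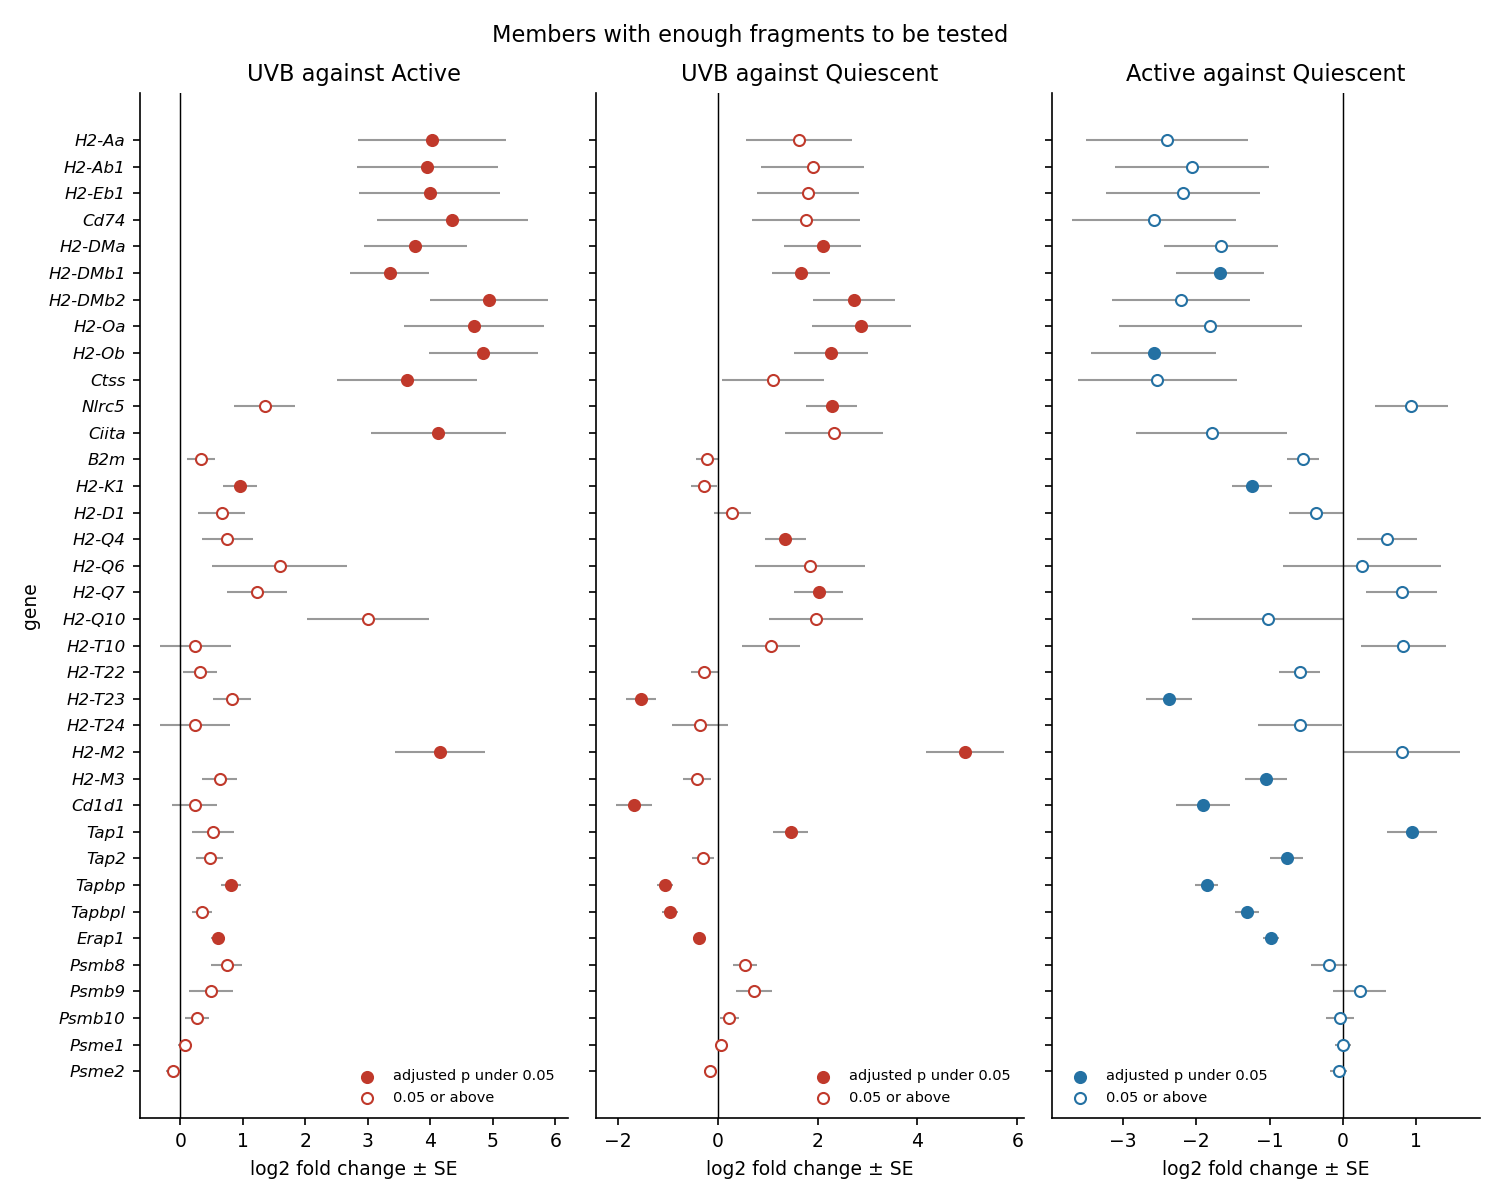
Log2 fold change of the 36 members tested in the 3 comparisons, with bars for the standard error and filled symbols for an adjusted p under 0.05. The class II genes, in the upper rows with Nlrc5 and Ciita, lie between 3.35 and 4.94 in UVB against Active, while most class I genes lie within 1 of 0.

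Further genes around the pathway are given by their counts. Beside these, 14.8% of all genes were called higher and 9.19% lower in UVB against Active. The shares were 25.8% and 23.2% in UVB against Quiescent, and 29.1% and 29.2% in Active against Quiescent. Of 7 factors that bind X and Y boxes, 3 were called higher in UVB than in Quiescent and 3 higher in Active than in Quiescent, and 0 lower in either by edgeR, with 1 lower in Active by DESeq2. Nfya, a subunit of the Y-box factor NF-Y, rose against Quiescent by 0.91 on the log2 scale in UVB and by 1.04 in Active, and Nfyb by 0.42 and 0.52. Creb1 was called in UVB (0.48) and Nfyc in Active (0.27). Of 5 endoplasmic reticulum chaperones, 0 were called in any comparison by edgeR or DESeq2 and 0 had an unadjusted p under 0.05, but 2 were called higher in both UVB and Active than in Quiescent without Quiescent replicate 3. Hspa5 and Hsp90b1, which fold new proteins, had the highest mean CPM of the 5, a scale that is not per length. Of 7 endolysosomal genes, proteases and a reductase, 2 were called higher and 1 lower in UVB against Active, and 0 of these 3 calls held without UVB replicate 1, Active replicate 1 or Active replicate 2. Against Quiescent, 5 were lower and 0 higher in UVB, and 4 lower and 2 higher without Quiescent replicate 2. In Active, 4 were lower than in Quiescent and 0 higher. Ctsh and Ctsl, cathepsins of the lysosome, fell in Active against Quiescent by 4.64 and 3.14 on the log2 scale. Of 4 other class I-like genes tested, all 4 were lower in Active than in Quiescent, and 3 were lower in UVB than in Quiescent. In UVB against Active 2 were higher, and 1 without UVB replicate 1 or 3, Active replicate 1 or 2, or Quiescent replicate 1. Among the 4 were Fcgrt, the neonatal Fc receptor (-3.18 in Active against Quiescent), and Procr, the endothelial protein C receptor (-4.51). Endothelial markers were lower in Active than in Quiescent for 6 of 6 genes and fibroblast markers for 7 of 7, and their part in the levels of the genes that were highest in Quiescent was not tested.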

How the data were processed

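Per the labels' protocols, cells were sorted, RNA was taken up in Trizol LS, and libraries were made from poly(A) RNA with strand information. Per the submitters' processing notes the tools were cutadapt 1.8, TopHat2 2.0.13, Cuffdiff 2.2.1, on the build mm10. Neither the gene annotation nor the strand option of the counting is given in those notes. The deposited table holds the authors' estimated counts per gene and library, per the file headers, before scaling. Of its 210249 values 1.08% were not whole to within 1e-06, among them values of H2-D1, H2-Q6, H2-Q7 and H2-T22, so Cuffdiff's sharing of fragments between close copies can move these genes. The authors' FPKM, per kilobase and after their own scaling, was used to compare genes with each other and in the limma alternatives.

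The estimated counts, rounded to whole numbers, went into edgeR 4.0.16 under R 4.3.3 (TMM factors, filterByExpr, 1 quasi-likelihood fit of 9 libraries with a mean per group). The filter left 15078 of 23361 genes, and p-values were adjusted over all of them, two-sided, at a threshold of 0.05. The standard error is the log2 fold change over the root of F. The 3 Quiescent libraries had TMM factors of 0.660 to 0.748, and the other 6 had 1.163 to 1.225. Low counts limit precision. The fit was tested on simulated data in which far fewer genes differed between groups than here. That test does not cover the broad differences between these groups or an outlying library.

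The 38 genes, the pathway and marker lists and the naming rule were chosen with earlier results of these data known. The rule names B2m, Nlrc5, Ciita, the 3 genes of each other role list with the smallest adjusted p, and genes at 0, decided by 1 library or opposite to their list, with up to 4 genes from each other list. H2-K1, H2-D1, H2-M3, H2-Q4, H2-Q7, Tap2, H2-L and Cd207 were added after their values were seen. Alternatives were RLE or no scaling factors, TMM without fibroblast genes, DESeq2 1.42.0, limma 3.58.1 on FPKM in log2 with a pseudocount of 1 or 0.1, a looser or stricter filter, fits of 2 groups, a replicate block and leaving out each library.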

Additional observations from a re-analysis of the deposited data

How the results depend on the processing

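With unscaled library totals, which moved the median over all genes to 0.742 in UVB against Quiescent and 0.757 in Active against Quiescent, 20 members were called higher and 2 lower in UVB against Quiescent, and 9 higher and 4 lower in Active against Quiescent. Under that setting the sign turned for Erap1 (0.34) and Psme2 (0.56) in UVB against Quiescent and for Psmb10 (0.70), Psme1 (0.74) and Psme2 (0.69) in Active against Quiescent, all below the shifted median of all genes. Leaving out 1 library gave 6 to 19 members higher and 0 lower in UVB against Active, 4 to 16 higher and 4 to 6 lower in UVB against Quiescent, and 0 to 1 higher and 7 to 19 lower in Active against Quiescent. Under the other alternatives these counts stayed within 1.5 times the main ones. DESeq2 gave no adjusted p for H2-Aa, H2-Ab1, H2-Eb1 and Cd74. Same-numbered libraries had correlations of deviations of -0.17 to 0.23, so the numbers were not taken as pairs. The replicate block gave 13 members higher and 0 lower in UVB against Active, 9 higher and 5 lower in UVB against Quiescent, and 1 higher and 9 lower in Active against Quiescent. Over all genes, unscaled totals gave 8746 higher and 1246 lower in UVB against Quiescent, against 3895 and 3498 in the fit reported, and 8651 and 2206 in Active against Quiescent, against 4390 and 4396. Leaving out Active replicate 2 gave 1039 higher and 461 lower in UVB against Active, against 2226 and 1386, and leaving out UVB replicate 1 or Active replicate 1 gave 1411 and 547, or 1230 and 597. The causes of these differences were not tested. Depth limits H2-Q1 and H2-Q2, with at most 8 fragments in any library.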

Other observations

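Other class I and class II genes of the H2 region stand outside the 38. The table lists 44 H2 genes, of which 22 are among the 38 and 8 had 0 fragments in all libraries. H2-Eb2, a second I-E beta chain gene, had 1.32, 1.44 and 1.22 CPM in UVB, 0.0623, 0 and 0.0409 CPM in Active, and 0.156, 0 and 0 CPM in Quiescent. It was at 0 in Quiescent replicate 2, the library where the other class II genes were high, and was called higher in UVB than in Active and than in Quiescent (edgeR adjusted p = 0.0068 and 0.0040), having entered the test through the UVB libraries alone, where it was high. H2-K2, a close copy of H2-K1, had 3.21, 2.05 and 4.93 CPM in UVB, 2.06, 1.52 and 3.03 CPM in Active, and 14, 22 and 5.43 CPM in Quiescent. H2-Q9, a close copy of H2-Q7, had 14.9, 12.9 and 11.3 CPM in UVB, 4.46, 4.13 and 10.3 CPM in Active, and 1.95, 0.775 and 0.354 CPM in Quiescent, and was called higher in UVB and in Active than in Quiescent (log2 fold changes of 3.61 and 2.56). H2-T9, a T-region copy, was lower than in Quiescent in UVB (-0.99) and in Active (-1.05). These genes were picked after their values were seen.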
